A study of Homo sapiens with 8 samples.

Results

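Zinc transporters and metallothioneins were followed across LNCaP cells treated with siRNA against GATA2 or with a control siRNA. Members were all genes with a symbol of SLC30A or SLC39A and a number, of MT1 and a letter, or MT2A, MT3 and MTF1. The arrays carried 38 of them, on 44 probes, among 42405 probes that were not controls. Of these 38 genes 36 were tested, among 28850 genes in all: 10 SLC30A genes, 13 SLC39A genes, 9 metallothionein genes, 3 metallothionein pseudogenes and MTF1. A further 6 matching symbols of the RefSeq gene table, MT1CP, MT1HL1, MT1JP, MT1P1, MT1P3 and MT1XP1, had no probe.

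LNCaP is an established line from a lymph node metastasis of a human prostate cancer. Cells of the group siGATA2 received 30 nM siRNA directed at GATA2, a transcription factor, and cells of the group siControl a scrambled siRNA, both in oligofectamin. RNA was taken after 72 h from 4 biological replicates of each group and hybridised to 1-colour arrays, 1 array a replicate, all on 1 slide. The model is a transient transfection of a single cell line, with 1 siRNA product against the target, and untransfected cells were not analysed here.

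Zinc enters the cytosol through importers of the SLC39A (ZIP) family and leaves it, to the outside or into vesicles, through exporters of the SLC30A (ZnT) family. Metallothioneins are small cysteine-rich proteins that bind zinc, copper and cadmium. MTF1 is the zinc-sensing transcription factor that drives the metallothionein genes and SLC30A1 through metal response elements in their promoters. Secretory cells of the normal prostate hold much zinc, which favours release of citrate, and prostate cancer cells are known for lower zinc.

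To show the element on which this control rests, upstream sequences of the tested members were taken from RefSeq (GRCh38.p14). It held promoter windows for 25 of these 36 members. Metal response element cores, spelled TGCACNC or TGCGCNC, were searched on both strands of the 250 bases before each annotated start. All 4 windows of metallothionein genes held at least 1 match, against 11 of 29 windows of zinc transporters (37.9%) and 24.8% of 35116 windows of all genes. Shown are 3 metallothionein genes of chromosome 16 and SLC30A1, with matches on either strand in capitals, each read 5′ to 3′ on the strand of the gene.
MT2A, chr16:56608334-56608583, plus strand: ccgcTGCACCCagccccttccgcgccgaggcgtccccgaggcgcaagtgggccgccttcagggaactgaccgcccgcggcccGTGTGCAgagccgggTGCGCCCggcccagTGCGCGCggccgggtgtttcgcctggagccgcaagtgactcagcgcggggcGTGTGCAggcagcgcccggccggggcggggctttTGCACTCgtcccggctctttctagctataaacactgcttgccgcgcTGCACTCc
MT1H, chr16:56669564-56669813, plus strand: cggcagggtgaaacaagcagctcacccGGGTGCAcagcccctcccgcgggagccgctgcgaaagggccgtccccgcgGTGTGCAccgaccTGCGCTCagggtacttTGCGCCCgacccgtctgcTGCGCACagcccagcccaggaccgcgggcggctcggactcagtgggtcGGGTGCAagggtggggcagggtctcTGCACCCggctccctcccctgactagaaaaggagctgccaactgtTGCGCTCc
MT1X, chr16:56682220-56682469, plus strand: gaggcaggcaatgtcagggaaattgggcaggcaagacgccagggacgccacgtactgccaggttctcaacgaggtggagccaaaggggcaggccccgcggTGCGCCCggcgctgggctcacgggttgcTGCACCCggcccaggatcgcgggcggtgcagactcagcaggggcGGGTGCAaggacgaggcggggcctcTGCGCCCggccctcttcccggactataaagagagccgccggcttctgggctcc
SLC30A1, chr1:211579162-211579411, minus strand: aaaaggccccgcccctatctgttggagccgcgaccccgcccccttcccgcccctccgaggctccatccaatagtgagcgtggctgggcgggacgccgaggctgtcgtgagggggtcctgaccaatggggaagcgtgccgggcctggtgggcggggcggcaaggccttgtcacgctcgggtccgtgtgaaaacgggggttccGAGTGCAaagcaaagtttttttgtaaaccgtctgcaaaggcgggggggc
The window of MT2A held 7 matches, that of MT1H 8, that of MT1X 4 and that of SLC30A1 1. A window with 5 or more was found in 0.12% of the windows of all genes, a limit chosen after the counts were seen. The window of MTF1 itself held none. GATA site words, spelled AGATAA with T also allowed as the first letter and G as the last, were found in 6 of 34 windows of members (17.6%), against 22.3% of the windows of all genes. A match is a stretch of letters and was not tested for binding.

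The RNA signal of GATA2, the target of the siRNA, read from its brightest probe, was not lower on the arrays labelled siGATA2. Arrays do not measure protein, and the authors report a marked fall of GATA2 protein in LNCaP cells given this siRNA. The log2 signal of GATA2 was 12.61, 12.54, 11.57 and 11.40 on siGATA2 arrays 1 to 4 and 11.74, 11.28, 11.10 and 11.29 on siControl arrays 1 to 4. The difference was 0.68 (standard error, SE, 0.312, n = 4 a group, limma adjusted p = 0.154), with an exact two-sided permutation p = 0.143. Directions below therefore rest on the labels of the arrays. Probes well above background numbered 34353 to 36968 on the siGATA2 arrays and 24241 to 34796 on the siControl arrays, fewest on siControl arrays 1 and 3. Markers of luminal prostate cancer cells were well above background on every array, and of these KLK3, KLK2 and HOXB13 were lower on the siGATA2 arrays and KRT8 higher. Of other cell types, 2 of 3 leukocyte markers were higher on the siGATA2 arrays, PTPRC by 0.87 and CD68 by 2.00 on the log2 scale, while CD3E was not called. The mean log2 signal of that list was 7.96 to 8.18 on the siGATA2 arrays and 7.02 to 7.29 on the siControl arrays, and its part in the results was not tested. Of 2 basal and 3 fibroblast markers tested 0 were called, and 0 and 1 of them were well above background on every array. The cultures were of a single line, LNCaP. In such bulk RNA fewer cells of a type and less RNA a cell cannot be told apart.

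A log2 fold change here is the mean log2 signal of the 4 siGATA2 arrays minus that of the 4 siControl arrays, for the brightest probe of a gene after quantile normalization. A gene was called at an adjusted p under 0.05 from limma. Of the 36 members tested 5 were lower on the siGATA2 arrays (13.9%), near the 14.2% of all 28850 genes that were lower. Another 3 were higher (8.33%), against 12.3% of all genes. By at least 2-fold, 3 members were lower and 0 higher, against 7.13% and 4.52% of all genes. The signals of the groups did not overlap in 11 members, against 32.6% of all genes. The members had a median of -0.0041, with 18 below 0 and 18 above it, and all genes one of 0.09. Since the counts lay near or under those of all genes, they set the members as a group apart in neither direction, and the results below concern single genes.

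**Figure D1:**
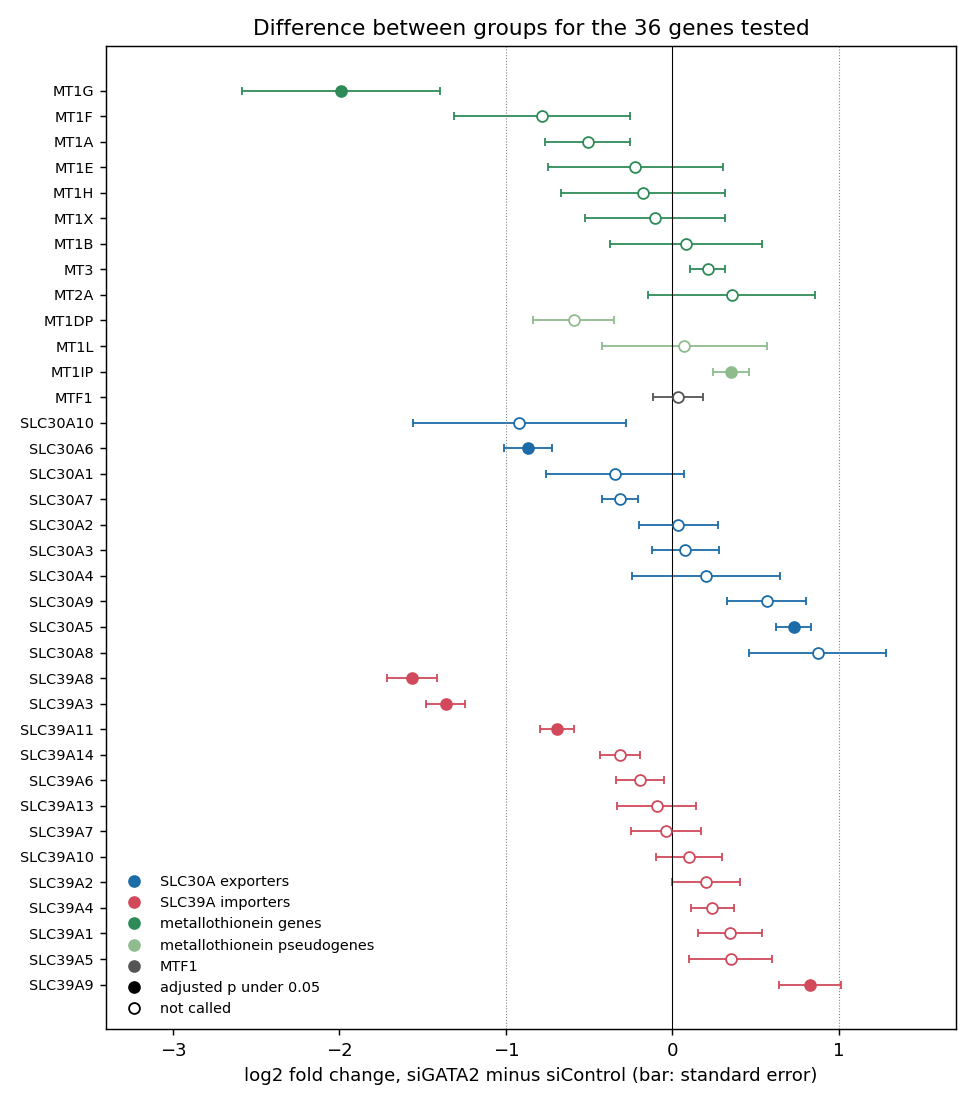
Log2 fold change (siGATA2 minus siControl, horizontal axis) of the 36 members tested, grouped by role, with bars of 1 standard error and filled points for an adjusted p under 0.05 from limma. Filled points are few in every family, and the metallothionein genes carry long bars on both sides of 0.

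Among the 13 importers of the SLC39A family 3 were lower (23.1%, against 14.2% of all genes) and 1 higher (7.69%, against 12.3%). The other 9 were not called, and the family had a median of -0.04 on the log2 scale. SLC39A8 (ZIP8), which carries zinc and manganese into cells, had log2 signals of 13.01, 12.89, 12.41 and 12.64 on siGATA2 arrays 1 to 4 and of 14.44, 14.30, 14.22 and 14.23 on siControl arrays 1 to 4. The groups lay more than 1 log2 unit apart with no overlap, and the siGATA2 arrays spread more widely than the siControl arrays. The means were 12.73 ± 0.267 and 14.30 ± 0.103 (SD, n = 4), a 2.95-fold lower signal with a log2 fold change of -1.56 (SE 0.150, limma adjusted p = 0.000202). A dimmer probe for another transcript of SLC39A8 fell by 1.92 on the log2 scale (SE 0.313, limma adjusted p = 0.00282).

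SLC39A3 (ZIP3) takes up zinc at the cell surface. Arrays 1 to 4 gave log2 signals of 9.41, 9.42, 9.45 and 9.47 in siGATA2 and of 10.54, 10.77, 10.93 and 10.96 in siControl. The siGATA2 arrays agreed within 0.06 log2 units, and all lay below every siControl array. The signal was 2.57-fold lower, with a log2 fold change of -1.36 (SE 0.118, limma adjusted p = 0.000126). SLC39A8 and SLC39A3 were called lower under all 22 alternative ways to process or select the arrays, at log2 fold changes of -2.25 to -1.45 and of -1.94 to -1.29. Within the slide row that held siGATA2 arrays 1 to 3 and siControl array 4 the differences were -1.46 for SLC39A8 and -1.53 for SLC39A3, and within the other row -1.68 and -1.28.

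SLC39A11 (ZIP11), an importer found on inner membranes, changed less. Arrays 1 to 4 gave 11.47, 11.34, 11.26 and 11.20 in siGATA2 and 12.10, 12.01, 11.97 and 11.96 in siControl on the log2 scale. The groups did not overlap, at a log2 fold change of -0.69 (SE 0.101, limma adjusted p = 0.00166). SLC39A9 (ZIP9), an importer of the Golgi, moved the other way. Its log2 signal was 9.79, 9.90, 10.46 and 10.46 on siGATA2 arrays 1 to 4 and 9.28, 9.26, 9.54 and 9.24 on siControl arrays 1 to 4. All siGATA2 arrays were above all siControl arrays, with arrays 3 and 4 the highest, at a log2 fold change of 0.83 (SE 0.187, limma adjusted p = 0.0135).

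SLC39A1 (ZIP1), the importer held to supply most zinc to prostate cells, was not called. Log2 signals were 11.09, 11.22, 11.44 and 11.42 on siGATA2 arrays 1 to 4 and 10.41, 11.06, 11.11 and 11.21 on siControl arrays 1 to 4. The groups overlapped and siControl array 1 was the lowest of all, at a log2 fold change of 0.34 (SE 0.192, limma adjusted p = 0.234). SLC39A2 (ZIP2), a close relative, was dim, and its log2 signal was 5.42, 5.45, 5.77 and 6.18 on siGATA2 arrays 1 to 4 and 5.40, 5.62, 5.23 and 5.77 on siControl arrays 1 to 4. It was well above background on 4 siGATA2 and 2 siControl arrays, and its log2 fold change was 0.20 (SE 0.205, limma adjusted p = 0.504). The remaining importers lay between -0.32 for SLC39A14, a carrier of zinc, manganese and iron, and 0.35 for SLC39A5, and none was called. SLC39A12 had a mean log2 signal of 2.95, was well above background on 3 of 8 arrays and was not tested.

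**Figure D2:**
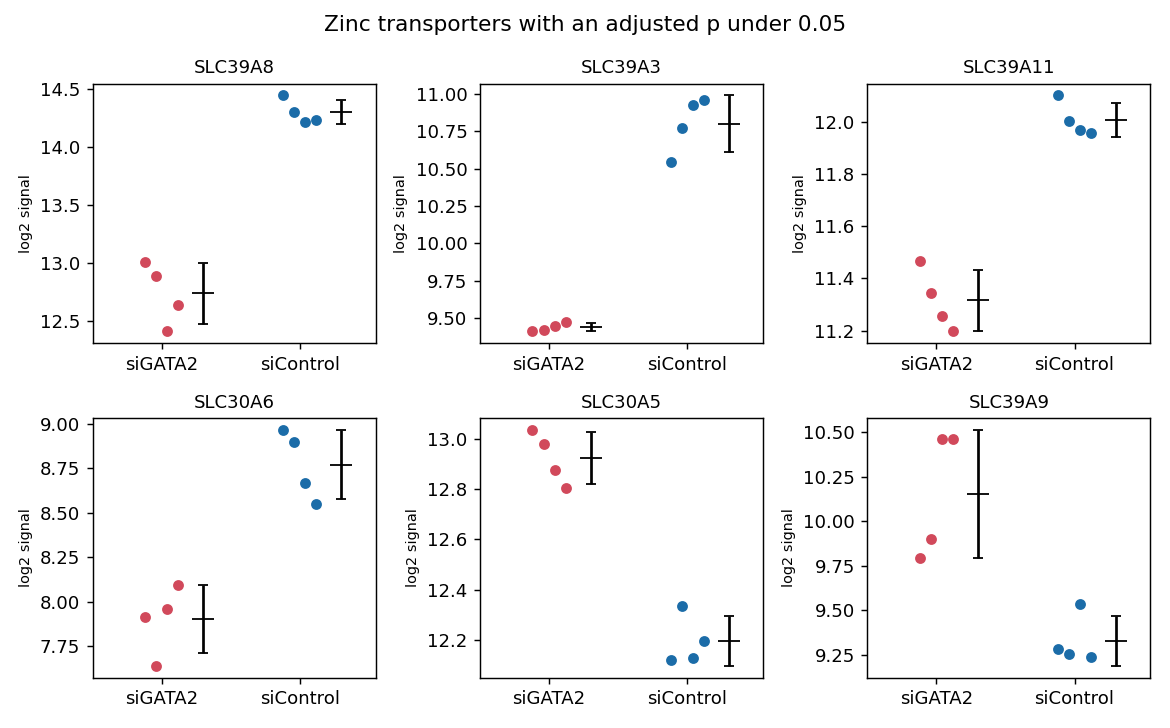
Log2 signal (vertical axes, which do not start at 0) of the 6 called zinc transporters on each array, 4 siGATA2 and 4 siControl, with the mean and SD of each group beside the points. In all 6 panels the groups do not overlap. On the brightest probes shown, SLC39A8, SLC39A3, SLC39A11 and SLC30A6 were lower on the siGATA2 arrays and SLC30A5 and SLC39A9 higher. A dimmer probe of SLC30A5, not shown here, was lower.

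Among the 10 exporters of the SLC30A family 1 was lower (10%, against 14.2% of all genes) and 1 higher (10%, against 12.3%). The other 8 were not called, and the family had a median of 0.06 on the log2 scale. The called genes were SLC30A6 (ZnT6) and SLC30A5 (ZnT5), which form a heterodimer that loads zinc into the early secretory pathway, and their brightest probes moved in opposite directions. SLC30A6 had log2 signals of 7.92, 7.64, 7.96 and 8.09 on siGATA2 arrays 1 to 4 and of 8.96, 8.90, 8.66 and 8.55 on siControl arrays 1 to 4. SLC30A5 had log2 signals of 13.04, 12.98, 12.87 and 12.80 on siGATA2 arrays 1 to 4 and of 12.12, 12.34, 12.13 and 12.20 on siControl arrays 1 to 4. In neither gene did the groups overlap. The log2 fold change was -0.87 for SLC30A6 (SE 0.145, limma adjusted p = 0.00319) and 0.73 for SLC30A5 (SE 0.104, limma adjusted p = 0.00145).

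The direction of SLC30A5 depended on the probe. A dimmer probe, designed for another of its transcripts, fell by 0.73 on the log2 scale (SE 0.221, limma adjusted p = 0.0430), with 6.70 to 7.54 on the siGATA2 arrays and 7.55 to 8.06 on the siControl arrays. The mean over both probes gave -0.00030. SLC30A7, which loads zinc into the same pathway, was not called by its brightest probe, at -0.31 (limma adjusted p = 0.0697), and its dimmer probe was lower at -0.50 (limma adjusted p = 0.0472). The importer SLC39A14 was likewise not called at -0.32 (limma adjusted p = 0.0893), and its dimmer probe was lower at -0.92 (limma adjusted p = 0.0155).

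**Figure D3:**
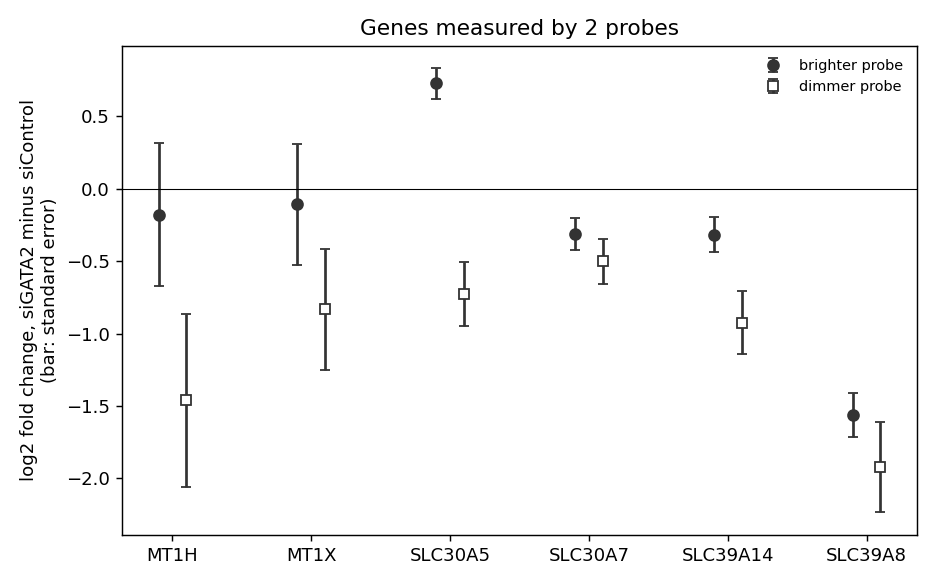
Log2 fold change (siGATA2 minus siControl, vertical axis) of both probes of the 6 members measured by 2 probes, with bars of 1 standard error. SLC30A5 has its probes on opposite sides of 0, and in the other 5 genes the dimmer probe lies further below 0 than the brighter one.

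SLC30A1 (ZnT1), the exporter of the cell surface and a known MTF1 target, was not called. Its log2 signal was 10.10, 10.19, 11.35 and 11.28 on siGATA2 arrays 1 to 4 and 10.14, 11.54, 11.26 and 11.35 on siControl arrays 1 to 4. siGATA2 arrays 1 and 2 and siControl array 1 lay about 1 log2 unit under the other 5 arrays, so that each group held high and low arrays, and the log2 fold change was -0.34 (SE 0.413, limma adjusted p = 0.575). SLC30A4, an exporter of endosomes, spread in the other order. On the log2 scale it gave 13.97, 13.84, 11.80 and 12.98 on siGATA2 arrays 1 to 4, against 12.77 to 13.05 on the siControl arrays. The remaining exporters lay between -0.92 for SLC30A10, a manganese exporter, and 0.87 for SLC30A8, the exporter of insulin granules, and none was called. SLC30A10 was well above background on 1 siGATA2 and 2 siControl arrays, and it was called lower without siControl array 3, at -1.52.

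The 9 metallothionein genes tested stand for proteins that bind the zinc these carriers move. Of these genes 1 was called lower (11.1%, against 14.2% of all genes) and 0 higher (against 12.3%). While 32.6% of all genes had groups without overlap, signals of the groups overlapped in each of these 9 genes. Their median log2 fold change was -0.18, with 6 below 0 and 3 above it. MT1G was the called gene, and its log2 signal was 7.42, 7.42, 9.13 and 8.92 on siGATA2 arrays 1 to 4 and 8.76, 10.71, 10.80 and 10.58 on siControl arrays 1 to 4. Both groups were split, since siControl array 1 lay below siGATA2 arrays 3 and 4. The means were 8.22 ± 0.932 and 10.21 ± 0.971 (SD, n = 4), a 3.98-fold lower signal with a log2 fold change of -1.99 (SE 0.594, limma adjusted p = 0.0413). This call was lost when siGATA2 array 1 or 2 or siControl array 2, 3 or 4 was left out, at -1.87 to -1.72, and in a fit blocked on slide row, at -1.88 (limma adjusted p = 0.137).

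MT2A, usually the most widely used metallothionein of human cells, had log2 signals of 14.95, 15.11, 16.95 and 16.94 on siGATA2 arrays 1 to 4 and of 15.42, 15.93, 15.44 and 15.73 on siControl arrays 1 to 4. siGATA2 arrays 1 and 2 were below every siControl array and siGATA2 arrays 3 and 4 were above every one, so that the mean hid values on both sides. The log2 fold change was 0.35 (SE 0.503, limma adjusted p = 0.637).

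On their brightest probes MT1X, MT1E, MT1H and MT1B, which encode close relatives of MT2A, repeated this order. MT1X had log2 signals of 12.93, 13.04, 14.51 and 14.45 on siGATA2 arrays 1 to 4 and of 13.29, 13.98, 14.07 and 14.03 on siControl arrays 1 to 4. MT1E had log2 signals of 10.91, 11.06, 13.03 and 12.88 on siGATA2 arrays 1 to 4 and of 11.69, 12.29, 12.46 and 12.34 on siControl arrays 1 to 4. In both genes siGATA2 arrays 1 and 2 were the lowest of the 8 and siGATA2 arrays 3 and 4 the highest, and the log2 fold changes were -0.11 and -0.22, with adjusted p of 0.875 and 0.784 from limma. MT1H had log2 signals of 11.54, 11.77, 13.57 and 13.41 on siGATA2 arrays 1 to 4 and of 12.28, 12.85, 12.97 and 12.90 on siControl arrays 1 to 4. MT1B had log2 signals of 12.28, 12.41, 14.15 and 13.99 on siGATA2 arrays 1 to 4 and of 12.78, 13.16, 13.33 and 13.23 on siControl arrays 1 to 4. Their log2 fold changes were -0.18 and 0.08, with adjusted p of 0.818 and 0.911 from limma. On the dimmer probes of MT1X and MT1H siControl arrays 2 to 4 were instead above every siGATA2 array. The dimmer probe of MT1X had log2 signals of 10.58, 10.66, 12.02 and 11.99 on siGATA2 arrays 1 to 4. On siControl arrays 1 to 4 it had 11.41, 12.40, 12.37 and 12.38, at a log2 fold change of -0.83 (limma adjusted p = 0.185). That of MT1H lay at 3.41 to 4.99 in siGATA2 and 4.13 to 6.42 in siControl, at -1.46 (limma adjusted p = 0.112).

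In MT1F and MT1A siControl arrays 2 to 4 were above every siGATA2 array. MT1F had log2 signals of 8.49, 8.67, 10.35 and 10.25 on siGATA2 arrays 1 to 4 and of 9.25, 10.54, 10.62 and 10.51 on siControl arrays 1 to 4. MT1A had log2 signals of 14.08, 14.16, 15.10 and 15.00 on siGATA2 arrays 1 to 4 and of 14.93, 15.11, 15.18 and 15.17 on siControl arrays 1 to 4. Neither was called, at -0.79 (SE 0.529, limma adjusted p = 0.317) and -0.51 (SE 0.255, limma adjusted p = 0.189).

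MT3, known as the growth inhibitory factor of the brain, did not follow the other genes. Log2 signals were 15.10, 15.30, 15.10 and 14.99 on siGATA2 arrays 1 to 4 and 14.85, 14.85, 14.94 and 15.01 on siControl arrays 1 to 4. All 8 arrays lay within 0.5 log2 units, at a log2 fold change of 0.21 (SE 0.105, limma adjusted p = 0.185). MT1M had a mean log2 signal of 2.94, was well above background on 2 of 8 arrays and was not tested.

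Among the pseudogenes, MT1L was ordered over the arrays as MT2A was, and MT1DP was lowest on siGATA2 arrays 1 and 2 with all siGATA2 arrays below all siControl arrays. MT1L had log2 signals of 12.30, 12.50, 14.36 and 14.18 on siGATA2 arrays 1 to 4 and of 12.92, 13.27, 13.50 and 13.36 on siControl arrays 1 to 4. MT1DP had log2 signals of 6.66, 6.67, 7.54 and 7.53 on siGATA2 arrays 1 to 4 and of 7.56, 7.69, 7.90 and 7.63 on siControl arrays 1 to 4. Neither was called, at 0.07 (limma adjusted p = 0.930) and -0.59 (limma adjusted p = 0.116). MT1IP had log2 signals of 7.08, 7.05, 7.05 and 6.996 on siGATA2 arrays 1 to 4 and of 6.65, 6.79, 6.51 and 6.84 on siControl arrays 1 to 4. It was higher by 0.35 (SE 0.106, limma adjusted p = 0.0434), with no overlap, but was dim and lost the call when any 1 array was left out, at 0.29 to 0.40. Metallothionein genes and pseudogenes are close in sequence, so the probe of 1 may also bind transcripts of another, and this was not tested.

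The spread within the siGATA2 group was the clearest feature of the metallothioneins. The median SD of the 9 genes over the siGATA2 arrays was 0.998 log2 units, against 0.318 over the siControl arrays, and over all genes tested the median SDs were 0.263 and 0.249. In 8 of the 12 metallothionein symbols siGATA2 arrays 1 and 2 both lay at least 2-fold under arrays 3 and 4, a split found in 1 of 23 zinc transporters, SLC30A1, and in 1.60% of all genes. The gap, the lower of arrays 3 and 4 minus the higher of arrays 1 and 2, was 1.84 for MT2A, 1.82 for MT1E and 1.67 for MT1L. It was 0.84 for MT1A and 0.86 for MT1DP, -0.30 for MT3 and -0.09 for MT1IP. On the control side siControl array 1 lay below the other siControl arrays in 10 of 12 symbols, against 40.4% of all genes. Both descriptions were chosen after the values were seen and carry no test.

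**Figure D4:**
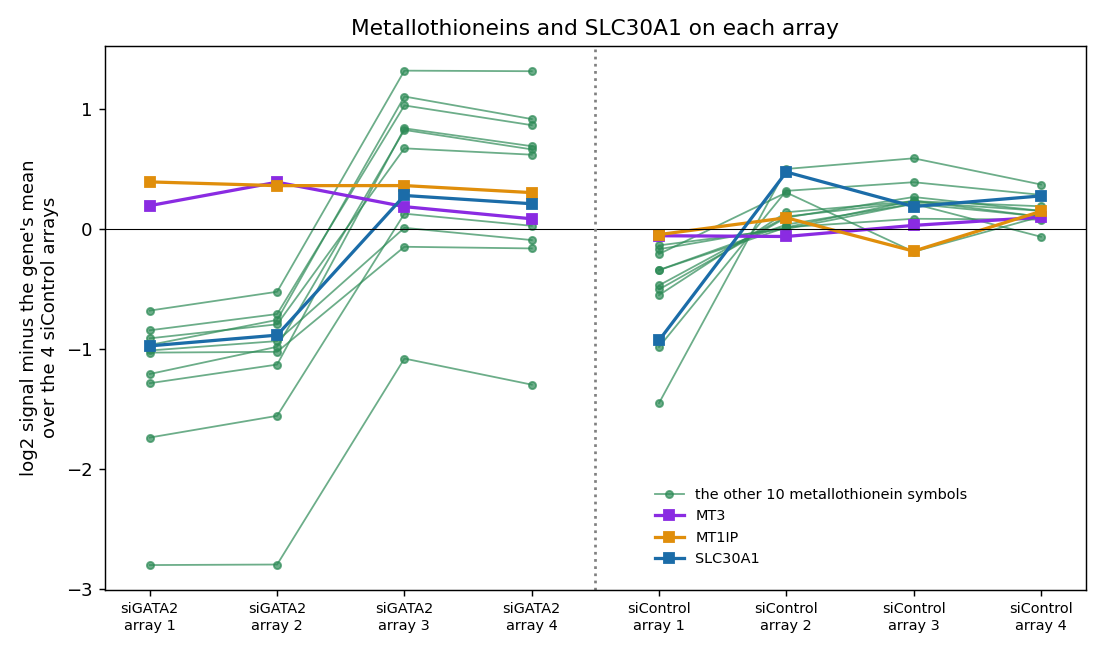
Log2 signal on each array minus the mean of the gene over the 4 siControl arrays (vertical axis), for the 12 metallothionein symbols tested and SLC30A1, 1 line a gene. The lines only join values of a gene, since arrays of a group have no order. On siGATA2 arrays 1 and 2 and on siControl array 1 most lines and SLC30A1 are low, while MT3 and MT1IP are not low there, MT1IP lying above its siControl mean on all 4 siGATA2 arrays.

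The low arrays did not share a slide row, since siGATA2 arrays 1 and 2 lay in the row of siGATA2 array 3, and siControl array 1 in that of siGATA2 array 4. Within the row of siGATA2 arrays 1 to 3 the siGATA2 minus siControl difference was -0.07 for MT2A, -0.68 for MT1E and -2.59 for MT1G, and within the other row it was 1.34, 0.74 and -1.18. For MT2A and MT1E the direction thus differed between rows. GATA2 itself was highest on the same 3 arrays, siGATA2 arrays 1 and 2 and siControl array 1, and so was GCLM, described below. The share of all genes that were highest on these 3 arrays was not counted. With 28485 probes well above background, siControl array 1 had fewer than any array but siControl array 3. The same 3 arrays were also those whose sample titles carry the letter A or B, while the other 5 carry letters from D to G. What the letters stand for was not given in the sources used here, and their part in the split was not tested.

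MTF1, the factor that senses zinc, was not called. Log2 signals were 10.68, 10.66, 11.06 and 11.20 on siGATA2 arrays 1 to 4 and 10.74, 11.005, 10.88 and 10.85 on siControl arrays 1 to 4. The groups overlapped, at a log2 fold change of 0.03 (SE 0.153, limma adjusted p = 0.892). MTF1 was lowest on siGATA2 arrays 1 and 2 and siControl array 1, the arrays that were low in most metallothioneins. Its gap between siGATA2 arrays 3 and 4 and arrays 1 and 2 was 0.38. This order was seen after the fact and was not tested.

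For many members the sign differed between quantile normalization and spike-in scaling. With each array scaled to its E1A spike-in probes in place of quantile normalization, the median over all genes moved from 0.09 to -0.43 and that over the members from -0.0041 to -0.63, and 15 members turned from above to below 0. siControl array 1 had a mean spike-in log2 signal of 11.13, under the 13.45 to 13.83 of the other arrays. Such scaling moves all genes of an array by 1 shared amount, so the turned signs are not separate results of single genes. With arrays scaled to their 75th percentiles instead, the medians were 0.17 over all genes and -0.02 over the members. Called lower with spike-in scaling were SLC39A8 at -2.25, SLC39A3 at -1.94, MT1G at -2.51 and SLC30A10 at -2.10, and 0 members were called higher, with SLC39A9 at 0.28 and SLC30A5 at 0.08. SLC39A11 at -1.33 and SLC30A6 at -1.34 were not called with it either. Relative to the median of all genes under each scaling, SLC39A8 stood at -1.65 with quantile normalization and -1.82 with the spike-ins, SLC39A3 at -1.45 and -1.51, MT1G at -2.08 and -2.08, and SLC39A9 at 0.74 and 0.71.

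**Figure D5:**
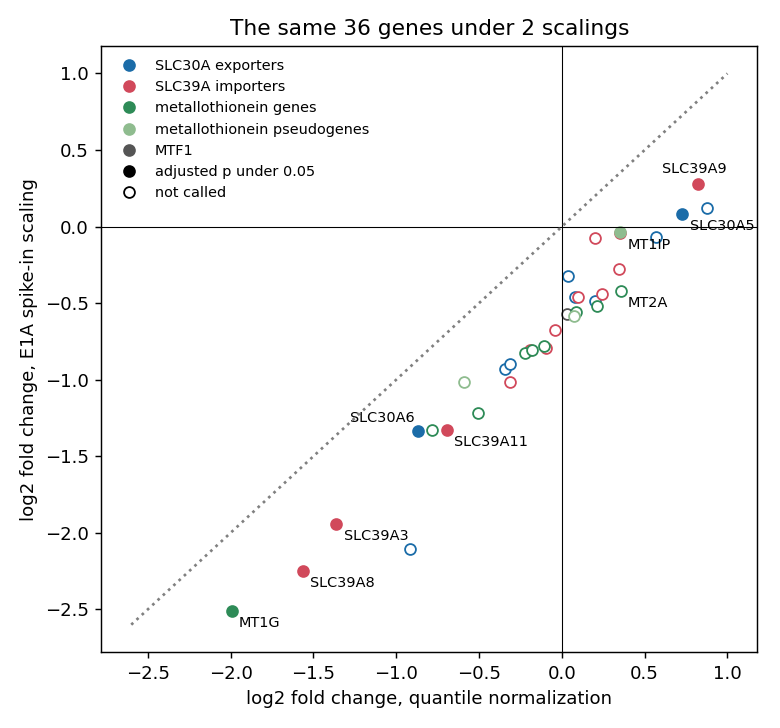
Log2 fold change (siGATA2 minus siControl) of the 36 members with quantile normalization (horizontal axis) and with E1A spike-in scaling (vertical axis), coloured by role and filled where called with quantile normalization. The dotted line marks equal values, and all points lie below it.

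Genes around these families were read as lists. Of 20 other genes that move or store metals 4 were lower (20%, against 14.2% of all genes) and 1 higher (5%, against 12.3%), around a median of 0.14. FTL, the light chain of the iron store ferritin, fell by 1.95 on the log2 scale (SE 0.186, limma adjusted p = 0.000201). FTL lay at log2 signals of 11.76 to 11.96 on the siGATA2 arrays and 13.27 to 14.12 on the siControl arrays. The copper-containing ferroxidases HEPH and CP were lower at -0.93 and -0.99, the mitochondrial iron carrier SLC25A28 was lower at -0.85, and the iron importer SLC11A2 was higher at 0.60. FTH1, the heavy chain of ferritin, was not called at 0.42 (limma adjusted p = 0.0739).

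Of 10 genes induced by metals or oxidants apart from metallothioneins 3 were lower (30%, against 14.2% of all genes) and 0 higher (against 12.3%), around a median of -0.24. The list held 11 genes, of which HSPA1A was not tested. The lower genes were the cystine importer SLC7A11 at -1.61 (SE 0.187, limma adjusted p = 0.000515), the heme oxygenase HMOX1 at -0.99 and the glutathione synthesis enzyme GCLC at -0.92.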

How the data were processed

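Total RNA of LNCaP cells was hybridised to 8 Agilent arrays in a single colour, with groups and replicate numbers from the source names of the samples. Deposited by the authors were spot intensities from Feature Extraction 11.0.1.1, in which the processed signal is corrected for background and is not scaled between arrays, with quality flags as other columns, and a table of log2 values, which the methods describe as quantile-normalized. Array files and methods name different array designs.

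From the deposited intensity, log2 processed signals of unflagged spots were averaged for each probe and quantile-normalized over the 8 arrays. Probes were named by their accession through RefSeq (GRCh38.p14), which matched 26364 of 27902 probes with a RefSeq accession. Unannotated probes and probes under 3 on the log2 scale were dropped after the methods, here by the mean over the 8 arrays, and a gene was read from its brightest probe, a choice the methods do not state. Groups were compared with lmFit and eBayes of limma 3.58.1 in R 4.3.3, where the methods name a t-test, with Benjamini-Hochberg adjustment over all 28850 genes and limits of 0.05 for the adjusted p and 2 for the fold. No member lacked a value. The test was checked on simulated data for this comparison, made from 28730 genes with 200 changed. It recovered 74% of changes of 2 and 40% of changes of 1 on the log2 scale, with 3.39% of its calls false. Each gene and array was drawn independently, so differences that many genes of an array share were not simulated. These rates may not hold where arrays of a group are split.

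Members, lists and tests were chosen with earlier results of these data known. Per-array signals were given for every tested metallothionein, MTF1, SLC30A1, SLC39A1, SLC39A2, SLC39A3 and each gene called with a change of at least 2-fold, and the other called genes and SLC30A4 were added after their values were seen. Where the groups of a gene do not overlap, an exact two-sided permutation test gives p = 0.0286, its lowest value for groups of 4. Signals of different probes were not compared with each other. Arrays have no read depth, and their number limits the precision. Alternatives were other scalings, background corrections, filters, tests, blocks and probe choices, the deposited log2 values, and leaving out arrays. A list of citrate genes and some marker genes are not reported here.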

Additional observations from a re-analysis of the deposited data

Results flagged for a closer look

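Among 72 groups of 4 arrays, 2 for each member tested, 7 held an array far from the other 3. For independent groups chance gives about 1 in 20. These groups share the same 8 arrays and hold related genes, so that rate is no measure for them. In 5 of the 7 this was siControl array 1 and in 2 siControl array 3. The ratio given is the gap to the nearest array divided by the range of the group.

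In MT1G siControl array 1 had a log2 signal of 8.76 against 10.58 to 10.80 on the others, a ratio of 0.893. In MT1F it had 9.25 against 10.51 to 10.62, a ratio of 0.923, and in MT1X 13.29 against 13.98 to 14.07, a ratio of 0.882. In SLC39A4, the intestinal importer mutated in acrodermatitis enteropathica, it had 14.18 against 14.31 to 14.33, a ratio of 0.850. In SLC39A13 it was the highest, at 13.98 against 13.36 to 13.42, a ratio of 0.903. In SLC39A9 siControl array 3 had 9.54 against 9.24 to 9.28, a ratio of 0.851. In SLC30A8 siControl array 3 had 2.13 against 3.81 to 4.07, a ratio of 0.866, where 2 of the 4 siControl arrays were well above background.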

How the results depend on the processing

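Signal over background, lowest on siControl arrays 1 and 3, stands where depth would, and limits SLC30A2, SLC30A8, SLC30A10, SLC39A2, SLC39A5 and MT1IP, which were not well above background on every array. Beside 5 members lower and 3 higher, normexp background correction gave 8 lower, E1A spike-in scaling 0 higher and a median of -0.63, title letter as a random block 5 higher, and array weights and that block each gave 1 member higher by at least 2-fold. The replicate block gave 5 lower and 2 higher, with MT1IP at 0.35 no longer called, and changed no other call. MT1G at -1.99 was not called by the methods' t-test. Same-numbered arrays correlated at 0.54, -0.31, 0.17 and 0.22 in their deviations from the group means, so the numbers were not taken as pairs.

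Signs turned with E1A spike-in scaling to -0.42 for MT2A, -0.52 for MT3, -0.44 for SLC39A4, -0.58 for MT1L, -0.56 for MT1B, -0.49 for SLC30A4, -0.065 for SLC30A9, -0.28 for SLC39A1, -0.57 for MTF1, -0.46 for SLC39A10, -0.46 for SLC30A3, -0.038 for MT1IP, -0.041 for SLC39A5, -0.32 for SLC30A2 and -0.075 for SLC39A2, with array weights to 0.19 for MT1X, -0.33 for SLC30A4, 0.25 for MT1H, 0.24 for MT1E, 0.16 for SLC39A7 and -0.057 for SLC30A3, and with slide row as a block to 0.073 for MT1X, 0.052 for MT1H, 0.030 for MT1E and -0.0077 for SLC30A3. They also turned with normexp to 0.024 for SLC39A7, with the mean over probes to -0.00030 for SLC30A5, and without siControl arrays 1 and 3 to 0.048 for SLC39A13, 0.16 for SLC39A7, -0.026 for MTF1 and -0.12 for SLC30A2. With spike-in scaling all genes of siControl array 1 rise by 1 shared amount against the other arrays. Its mean spike-in log2 signal was 11.13, against 13.45 to 13.83 on them. The causes of the turned signs were not tested.

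Dropping single arrays turned the sign in 12 members that were not called, whose values ran from -0.36 to 0.16 for MT1X, -0.23 to 0.052 for SLC39A13, -0.27 to 0.42 for MT1L, -0.23 to 0.39 for MT1B, -0.072 to 0.65 for SLC30A4, -0.51 to 0.17 for MT1H, -0.58 to 0.13 for MT1E, -0.15 to 0.16 for SLC39A7, -0.067 to 0.11 for MTF1, -0.055 to 0.27 for SLC39A10, -0.040 to 0.19 for SLC30A3 and -0.12 to 0.18 for SLC30A2. Counts were then 4 to 5 lower, 2 higher and 2 to 3 lower by at least 2-fold, and the median ran from -0.17 to 0.09. Title letter as a random block assumes 1 shared correlation, and slide could not be a block with 1 slide.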

Other observations

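Titles of the samples carry a letter whose meaning was not given in the sources used here, and 2 letters occur in both groups. Within letter B (siGATA2 array 2 and siControl array 1) the siGATA2 minus siControl difference of the log2 signal was -0.31 for MT2A, -0.63 for MT1E and -1.34 for MT1G. Within letter F (siGATA2 array 4 and siControl array 3) it was 1.50, 0.42 and -1.88. For SLC39A8 the differences were -1.56 and -1.58, and for SLC39A3 -1.12 and -1.46. These pairs were set side by side after the data were seen, with no test.

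Other genes were split over these arrays too. NQO1, an oxidant-induced reductase, went the way of most metallothioneins, with log2 signals of 8.99, 9.14, 10.67 and 10.63 on siGATA2 arrays 1 to 4 and of 8.58, 9.55, 9.25 and 9.46 on siControl arrays 1 to 4. HMOX1 was lower on siGATA2 arrays 1 and 2, at 9.79 and 9.83, than on arrays 3 and 4, at 10.75 and 10.69, but was highest on siControl array 1, at 11.44. GCLM, the modifier subunit of glutathione synthesis, was split over the same arrays as the metallothioneins but in the other direction. Its log2 signal was 17.07, 17.02, 14.96 and 15.11 on siGATA2 arrays 1 to 4 and 16.19, 14.68, 14.89 and 14.91 on siControl arrays 1 to 4. It was highest on siGATA2 arrays 1 and 2 and siControl array 1, and these 3 genes were named after their values were seen.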
